A study of Mus musculus with 18 samples.

Results

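The 10 genes described here were the 5 subunits of the transcription factor NF-kB and 5 members of its IkB inhibitor family, taken by name from a count table of 21734 protein-coding genes. The subunits were Nfkb1, Nfkb2, Rela, Relb and Rel, and the IkB family members were Nfkbia, Nfkbib, Nfkbie, Nfkbiz and Bcl3. All 10 were found and all 10 passed the filter on low counts, which left 11357 genes for testing.

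RNA was measured in bone marrow-derived macrophages (BMDMs), which are grown from marrow in the growth factor M-CSF, here at 10 ng/ml for 8 to 9 days. Marrow came from mice 6 to 7 months old of 129/B6 mixed strain, 3 of each genotype. The genotypes were WT, KO, homozygous for loss of the miR-146a precursor in the whole animal, and 3'F, homozygous for a miR-146a in which bases outside the seed were exchanged between the arms of its precursor. The alleles were made in V6.5 ES cells, each mutant line was crossed to B6 separately, and the WT mice came from the breeding of both lines. BMDMs were either kept in fresh medium (resting) or given 1 ng/ml LPS, a bacterial cell wall component sensed by TLR4, for 16 h, giving 6 groups of 3 libraries. The comparisons address whether these genes respond to LPS, and whether their level differs with loss of miR-146a or a change outside its seed. Each mutant allele was kept in its own line, so effects of the allele and of the line cannot be told apart.

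NF-kB acts as a dimer. The p50 and p52 subunits, made from longer precursors encoded by Nfkb1 and Nfkb2, bind DNA but carry no activation domain, whereas RelA, RelB and c-Rel, encoded by Rela, Relb and Rel, do. In resting cells the classical IkB proteins IkBa, IkBb and IkBe, encoded by Nfkbia, Nfkbib and Nfkbie, hold dimers in the cytoplasm until the IKK complex marks them for destruction. The atypical members IkBz and Bcl-3, encoded by Nfkbiz and Bcl3, work in the nucleus on p50 or p52 dimers. Several of these genes are themselves NF-kB targets in macrophages, and miR-146a, an NF-kB target too, is known as a brake on the pathway through Irak1 and Traf6.

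The sequences of the microRNA forms are shown because they define the genotypes. The mature miR-146a-5p entry of RefSeq (build GRCm38.p6, chr11:43374435-43374456, minus strand) is followed by the study's synthetic WT and 3'F mimics without their added thymidines. Capitals mark the seed, bases 2 to 8.
miR-146a-5p: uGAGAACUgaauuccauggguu
WT mimic: uGAGAACUgaauuccauggg
3'F mimic: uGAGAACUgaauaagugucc
The mimics were identical over their first 12 bases and differed at 8 of 20 bases, from position 13 to position 20. The related miR-146b-5p has the same seed and lies 30.4 kb beyond the end of Nfkb2 on chromosome 19.

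Matches to that seed in the longest annotated 3' UTR of each of the 10 genes were searched in GENCODE M21 transcripts on mm10. A match to bases 2 to 8, or to bases 2 to 7 followed by A, was found in 2 of the 10 genes, Rel and Nfkbib, against 20.6% of the 11302 tested genes with a 3' UTR. Rel, whose 3' UTR of 5418 bases was long against a median of 1164, held 1 match of 8 bases, 5 of 7 bases and 1 of 6 bases. Nfkbib held 1 match of 7 bases and 1 of 6, Relb held 1 of 6 bases, and the remaining 7 genes held none. The 4 Rel matches that pair with the whole seed are shown with the match in capitals, because Rel is the gene of the family richest in them.
Rel 7mer-m8, chr11:23741220-23741245, minus strand: actcagccttcAGTTCTCctgctctg
Rel 7mer-m8, chr11:23739186-23739211, minus strand: gggaccccagaAGTTCTCcgcacctc
Rel 7mer-m8, chr11:23739111-23739136, minus strand: ttttgctaattAGTTCTCcatttgga
Rel 8mer, chr11:23736994-23737020, minus strand: atttttttttaAGTTCTCAagatactg
A match is a description of the sequence and does not show that miR-146a acts there.

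Promoter windows of RefSeq (GRCm38.p6), running from 250 bases before to 50 after the start, were found for 7 of the 10 genes. Nfkb1, Relb and Nfkbiz were not among them. The kB consensus (GGG, a purine, any 2 bases, 2 pyrimidines and CC) was searched on both strands, and 5 of the 7 genes held it in a window, against 8.46% of 32851 windows and 12.3% of 8907 tested genes with a window. The stretches that hold it, from 120 bases before to 14 after the start, are shown with the consensus in capitals; overlapping matches are merged, and in Nfkbia it reads on the strand opposite to the one printed.
Nfkb2, chr19:46304617-46304751, plus strand: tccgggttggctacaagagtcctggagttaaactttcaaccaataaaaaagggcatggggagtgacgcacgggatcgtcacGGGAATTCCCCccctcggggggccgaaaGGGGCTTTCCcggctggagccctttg
Rel, chr11:23770955-23771089, minus strand: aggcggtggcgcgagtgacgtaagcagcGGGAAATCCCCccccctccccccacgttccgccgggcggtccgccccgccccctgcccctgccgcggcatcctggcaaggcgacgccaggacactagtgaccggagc
Nfkbia, chr12:55492633-55492767, minus strand: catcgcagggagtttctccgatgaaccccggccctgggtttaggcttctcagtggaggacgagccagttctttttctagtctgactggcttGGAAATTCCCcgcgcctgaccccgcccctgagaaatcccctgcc
Nfkbie, chr17:45555580-45555714, plus strand: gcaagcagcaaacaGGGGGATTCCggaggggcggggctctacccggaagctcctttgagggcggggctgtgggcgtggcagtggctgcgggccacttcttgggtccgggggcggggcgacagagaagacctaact
Bcl3, chr7:19822741-19822875, minus strand: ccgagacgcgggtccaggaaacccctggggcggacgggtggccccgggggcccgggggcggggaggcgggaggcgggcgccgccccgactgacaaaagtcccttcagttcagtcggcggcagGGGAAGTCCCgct
Nfkb2 had further matches in 2 more windows at later starts. These windows overlap, and the match at chr19:46305705-46305714 lies in both. The windows of Rela and Nfkbib had none. With the looser pattern of GGG and CC separated by any 5 bases, 6 of the 7 genes and 50.8% of all windows matched.

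Total counts per library ran from 4071084 to 19818043, and the counts of these genes from 10 (Bcl3) to 9666 (Nfkbia). Of the markers checked, the 7 macrophage genes summed to between 31118 and 86456 CPM (counts scaled to 1000000 reads per library). Those of mast cells, B cells, dendritic cells and fibroblasts summed to at most 3.98 CPM. Those of T cells summed to 0.449 to 11.3 CPM and those of neutrophils to 13.4 to 66.0 CPM. The T cell sum was mostly Cd4, at up to 11.2 CPM, as Cd3e, Cd3d and Cd8a reached at most 0.234 CPM. The neutrophil sum was mostly S100a8 and S100a9, at up to 48.3 and 16.9 CPM, where Camp reached 6.15 CPM and Ly6g 0.128 CPM. Resting KO replicate 3 stood apart from the other resting KO libraries, with 6976 CPM over 8 interferon response genes against 383 and 253 CPM. Resting WT libraries held 45.7, 54.6 and 125 CPM over these genes. All 8 were called higher in resting KO than in WT (5.12% of all genes). Without KO replicate 3 it was 7 of the 8, with a median log2 fold change of 2.09, where 808 of 11493 genes were called in either direction. Resting 3'F replicate 3, the shallowest library, lay at 50.3 on the second principal component against −4.50 and −5.32 for the other resting 3'F libraries. Each genotype had 3 mice and 3 libraries in each state, so libraries of a genotype must share mice. Resting and LPS columns of a genotype share a letter and a replicate number, but no label says whether these mark the same mouse. The main fit took all libraries as independent, so its p values describe the spread between cultures. In these bulk samples fewer cells of a type and less RNA per cell cannot be told apart.

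Most of the family rose with LPS, a smaller set was higher in KO than in WT, and no member passed the test between 3'F and WT. At an adjusted p under 0.05 in the edgeR quasi-likelihood fit, 8 of the 10 genes rose with LPS in WT BMDMs, against 28.5% of all tested genes called in either direction. In KO 5 of 10 rose, against 26.9%, and in 3'F 8 of 10 rose, against 31.2%. In resting cells 6 of 10 were higher in KO than in WT, against 9.4%, and with LPS 1 of 10 was, against 4.79%. These 2 counts do not show that the states differ. With the compared groups fitted alone they were 1 and 4 (396 of 10851 and 1031 of 10903 tested genes called). With DESeq2 they were 6 and 4 (1435 and 912 of 11817), and with quality weights 8 and 5 (2259 and 1777 of 11357). A KO to WT difference in the LPS response was called for 0 of 10 (0.00881% of all genes). Against 3'F, 5 of 10 were higher in resting KO (12.9% of all genes) and 1 of 10 in KO with LPS (3.88%). Between 3'F and WT 0 of 10 were called in resting cells (0% of all genes) and 0 of 10 with LPS (0.00881%). DESeq2 also called 0 in both (2 of 19873 tested genes in each). Members at an unadjusted p under 0.05 were 1 at rest, Nfkbie, and 0 with LPS (4.9% and 0.933% of all genes). None of the 10 was called lower in any of these comparisons.

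**Figure D1:**
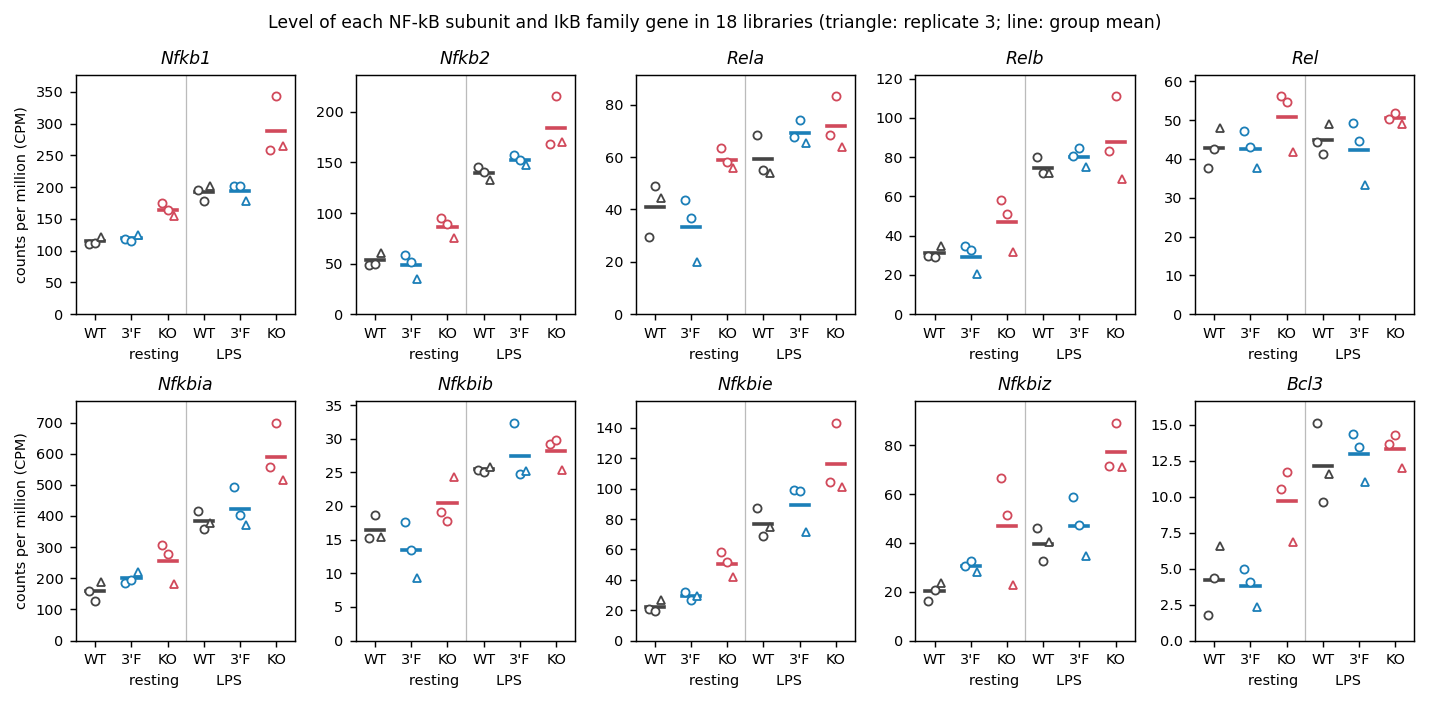
CPM on the vertical axis, from 0, for each of the 10 genes in the 18 libraries, with genotype along the horizontal axis and the resting groups to the left of the LPS groups. Circles are replicates 1 and 2, triangles replicate 3, and lines the mean of 3 libraries. In 9 panels every LPS library lies above every resting library of its genotype, and in the Rel panel the states overlap in each genotype. Of all tested genes, 25.9% showed this separation in WT, 23.8% in KO and 25.1% in 3'F.

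The members differed in how far they rose. Nfkb1, the precursor of p50 (mm10, as all gene positions here, chr3:135584655-135691547, minus strand), was at 111, 111 and 122 CPM in resting WT BMDMs and at 196, 178 and 201 CPM with LPS. Resting 3'F libraries held 118, 115 and 125 CPM and those with LPS 202, 202 and 178 CPM, within or near the WT range in each state. Resting KO libraries stood higher, at 175, 163 and 155 CPM, and KO libraries with LPS highest of all, at 258, 343 and 265 CPM. No KO library overlapped a WT or 3'F library of the same state. The LPS response had log2 fold changes of 0.74 ± 0.11 in WT, 0.81 ± 0.11 in KO and 0.70 ± 0.11 in 3'F (SE). KO exceeded WT by 0.52 ± 0.11 on the log2 scale in resting cells (adjusted p = 0.00900) and, in the LPS cultures, by 0.59 ± 0.11 (adjusted p = 0.00612). It exceeded 3'F by 0.46 ± 0.11 (adjusted p = 0.0165) and 0.57 ± 0.11 (adjusted p = 0.00894). Nfkb1 was the single member called in KO with LPS, and the call against WT held in all 12 alternative analyses, with adjusted p values up to 0.0454. The call against 3'F with LPS was lost without KO replicate 2 or without 3'F replicate 3.

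Nfkb2, the precursor of p52 (chr19:46304320-46312385, plus strand), made the largest rise of the subunits. It went from 48.6, 49.998 and 60.9 CPM to 145.5, 140 and 132 CPM in WT, a log2 fold change of 1.39 ± 0.16 (adjusted p = 1.08e-05). In KO it went from 94.8, 89.0 and 75.7 CPM to 168, 215 and 170 CPM (1.09 ± 0.16), and in 3'F from 58.9, 51.8 and 35.1 CPM to 157, 152 and 147 CPM (1.63 ± 0.16). All 3 resting KO libraries lay above all resting WT and 3'F libraries, and resting KO exceeded WT by 0.70 ± 0.16 (adjusted p = 0.0111) and 3'F by 0.82 ± 0.16 (adjusted p = 0.00632). With LPS the KO libraries again lay above the others, but the difference from WT, 0.40 ± 0.16, did not pass the test (adjusted p = 0.160).

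Relb, which pairs mainly with p52 in the non-canonical branch (chr7:19606217-19629438, minus strand), followed Nfkb2 with LPS. Its WT libraries held 29.8, 29.1 and 34.8 CPM at rest and 80.0, 71.7 and 71.8 CPM with LPS (log2 fold change 1.26 ± 0.22). The rise was 0.89 ± 0.21 in KO and 1.43 ± 0.22 in 3'F. Resting KO libraries were split, with 58.2 and 51.1 CPM in replicates 1 and 2 and 31.5 CPM, inside the WT range, in replicate 3. The KO to WT difference in resting cells was 0.59 ± 0.22 (adjusted p = 0.101), and it passed the test without replicate 3 (0.81, adjusted p = 0.0195).

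Rela, encoding the main activating subunit of the canonical pathway (chr19:5637483-5648130, plus strand), moved less. Resting WT libraries held 29.6, 48.9 and 44.4 CPM and WT libraries with LPS 68.5, 55.1 and 54.0 CPM. The groups did not overlap, yet the log2 fold change of 0.53 ± 0.22 missed the threshold (adjusted p = 0.0772). In 3'F the rise was 1.02 ± 0.22 (adjusted p = 0.00237), from 43.6, 36.6 and 20.1 CPM to 67.6, 74.1 and 65.5 CPM, where the lowest value, 86 counts, comes from resting replicate 3 (0.75 without it, adjusted p = 0.00712). In KO Rela went from 63.3, 58.0 and 55.7 CPM to 68.4, 83.2 and 64.0 CPM, 0.28 ± 0.21 (adjusted p = 0.357). Resting KO was above resting 3'F by 0.79 ± 0.22 (adjusted p = 0.0284), which was lost when replicate 3 of both groups was left out (0.62, adjusted p = 0.0657), and above WT by 0.53 ± 0.22 (adjusted p = 0.147).

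Rel, encoding c-Rel (chr11:23736847-23770970, minus strand), passed the test in none of the comparisons. Its libraries held 37.8, 42.5 and 48.0 CPM in resting WT, 44.5, 41.2 and 49.1 CPM in WT with LPS, 56.1, 54.6 and 41.8 CPM in resting KO and 50.3, 51.9 and 49.0 CPM in KO with LPS. Those of 3'F held 47.1, 43.0 and 37.7 CPM at rest and 49.2, 44.6 and 33.4 CPM with LPS. Within each state the genotypes overlapped, and the LPS log2 fold changes were 0.07 (95% interval −0.24 to 0.38) in WT, −0.01 (−0.32 to 0.29) in KO and −0.01 (−0.32 to 0.30) in 3'F. In Rel, which holds the seed matches shown above, KO differed from WT by 0.25 (−0.06 to 0.56) in resting cells and 0.17 (−0.14 to 0.48) with LPS. Rel lies 19.6 Mb from miR-146a on chromosome 11.

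**Figure D2:**
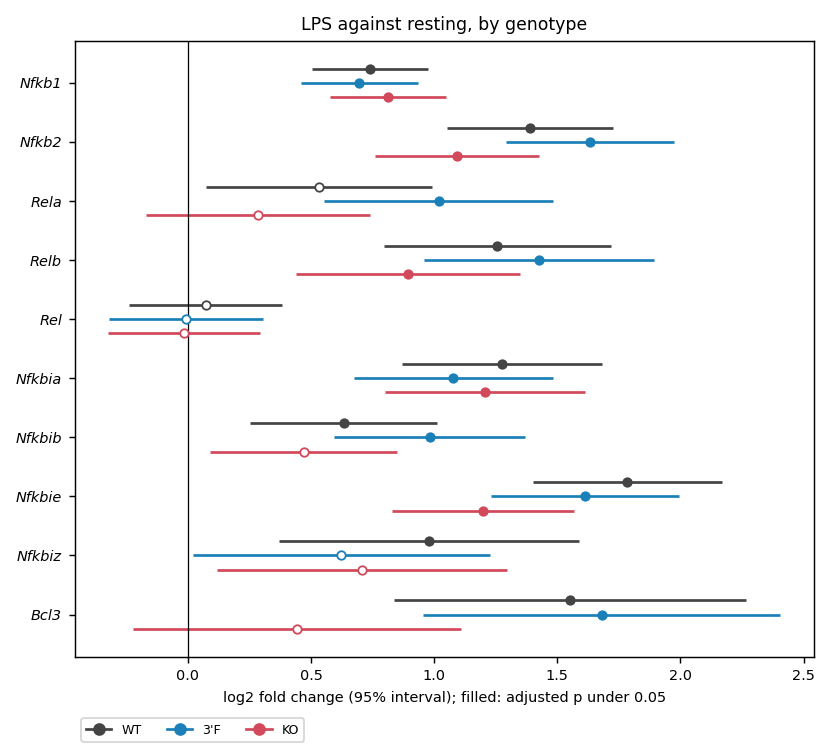
Log2 fold change of LPS against resting cells on the horizontal axis, with 95% intervals, for each gene in WT, 3'F and KO. Filled points have an adjusted p under 0.05. Points lie to the right of 0 for 9 genes in every genotype, Rel sits at 0, and the KO intervals of Rela and Bcl3 reach below 0.

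Among the classical inhibitors Nfkbie (chr17:45555703-45563169, plus strand), encoding IkBe, had the largest rise with LPS in WT and in 3'F. Its 3 resting WT libraries held 20.8, 19.5 and 26.7 CPM and rose with LPS to 87.0, 69.1 and 74.5 CPM, a log2 fold change of 1.79 ± 0.18 (adjusted p = 3.11e-06) and the largest of the 10 genes. Resting KO libraries stood at 58.4, 51.8 and 41.7 CPM, all above the resting WT and 3'F libraries, and KO libraries with LPS at 104, 143 and 101 CPM. The 3'F libraries held 31.7, 26.7 and 29.5 CPM at rest and 98.8, 98.5 and 71.2 CPM with LPS. Resting KO exceeded WT by 1.19 ± 0.18 (adjusted p = 0.00155), called in all 13 alternative analyses, and 3'F by 0.79 ± 0.18 (adjusted p = 0.0112). With LPS the KO to WT difference was 0.60 ± 0.17 (adjusted p = 0.0582). The rise with LPS was 1.20 ± 0.18 in KO, and it differed from that in WT by −0.59 (95% interval −1.11 to −0.06), with an unadjusted p of 0.0304 and an adjusted p of 0.918 in edgeR.

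Nfkbia, whose IkBa protein is rapidly resynthesised after activation (chr12:55489410-55492647, minus strand), was the most abundant of the 10 in CPM and per length. It rose from 160, 127 and 188 CPM to 416, 359 and 377 CPM in WT (log2 fold change 1.28 ± 0.19), from 308, 279 and 181 CPM to 557, 700 and 516 CPM in KO (1.21 ± 0.19) and from 185, 195 and 221 CPM to 495, 403 and 370 CPM in 3'F (1.08 ± 0.19). In resting cells KO replicates 1 and 2 lay above all WT and 3'F libraries, while replicate 3 lay inside the WT range. The KO to WT difference was 0.69 ± 0.19 (adjusted p = 0.0313) and rose to 0.89 without that library (adjusted p = 0.00589). With LPS all KO libraries were above all WT and 3'F libraries, with a difference from WT of 0.62 ± 0.19 that fell short of the threshold (adjusted p = 0.0693).

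Nfkbib, encoding the more slowly degraded IkBb (chr7:28758251-28767512, minus strand), was among the least changed. It went from 15.2, 18.6 and 15.4 CPM to 25.4, 25.1 and 25.8 CPM in WT (0.63 ± 0.18, adjusted p = 0.0148). In 3'F it went from 17.7, 13.4 and 9.36 CPM to 32.4, 24.7 and 25.1 CPM (0.98 ± 0.18, adjusted p = 0.000829). In KO it went from 19.0, 17.7 and 24.4 CPM to 29.2, 29.8 and 25.3 CPM (0.47 ± 0.18, adjusted p = 0.0622). KO and WT differed by 0.31 (−0.08 to 0.69) in resting cells and 0.14 (−0.23 to 0.52) with LPS.

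The remaining members, Nfkbiz and Bcl3, act in the nucleus. Nfkbiz, an inducible coactivator for genes such as Il6 (chr16:55811375-55838899, minus strand), held 16.2, 20.6 and 23.6 CPM in resting WT and 46.0, 32.5 and 40.2 CPM with LPS (0.98 ± 0.29, adjusted p = 0.0175). Resting KO replicates 1 and 2 held 66.8 and 51.5 CPM, above every WT library with LPS, whereas replicate 3 held 22.9 CPM, inside the resting WT range. KO with LPS held 71.5, 89.4 and 71.3 CPM, above every other library of the gene. The LPS response was 0.71 ± 0.28 in KO (adjusted p = 0.0704) and 0.62 ± 0.28 in 3'F (adjusted p = 0.107), neither past the threshold, and that in KO differed from that in WT by −0.27 ± 0.40 (adjusted p = 1.00). The 3'F libraries held 30.7, 32.7 and 28.1 CPM at rest, all above the WT libraries, and 59.1, 47.3 and 34.8 CPM with LPS, where they overlapped WT. Resting KO exceeded WT by 1.24 ± 0.29 (adjusted p = 0.0133) and by 1.56 without replicate 3 (adjusted p = 0.000748). With LPS the difference was 0.97 ± 0.28 (adjusted p = 0.0585). Resting 3'F differed from WT by 0.61 ± 0.29 (adjusted p = 0.843).

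Bcl3 (chr7:19808462-19822770, minus strand) was the least abundant member in CPM. Resting WT libraries held 1.77, 4.37 and 6.58 CPM, from 27 to 68 counts, and rose with LPS to 15.1, 9.62 and 11.6 CPM (1.55 ± 0.34, adjusted p = 0.00272). In 3'F it rose from 4.97, 4.06 and 2.34 CPM to 14.4, 13.5 and 11.03 CPM (1.68 ± 0.34). In KO it was already at 10.5, 11.7 and 6.85 CPM at rest and at 13.6, 14.3 and 11.98 CPM with LPS, a difference of 0.44 ± 0.31 that did not pass the test (adjusted p = 0.323). Resting KO exceeded WT by 1.24 ± 0.34 (adjusted p = 0.0316) and 3'F by 1.27 ± 0.34 (adjusted p = 0.0262). With LPS the 3 genotypes overlapped, and KO differed from WT by 0.13 (−0.52 to 0.79). The LPS response in KO differed from that in WT by −1.11 (−2.08 to −0.13), with an unadjusted p of 0.0286 and an adjusted p of 0.907. Bcl3 lies 0.179 Mb from Relb on chromosome 7.

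**Figure D3:**
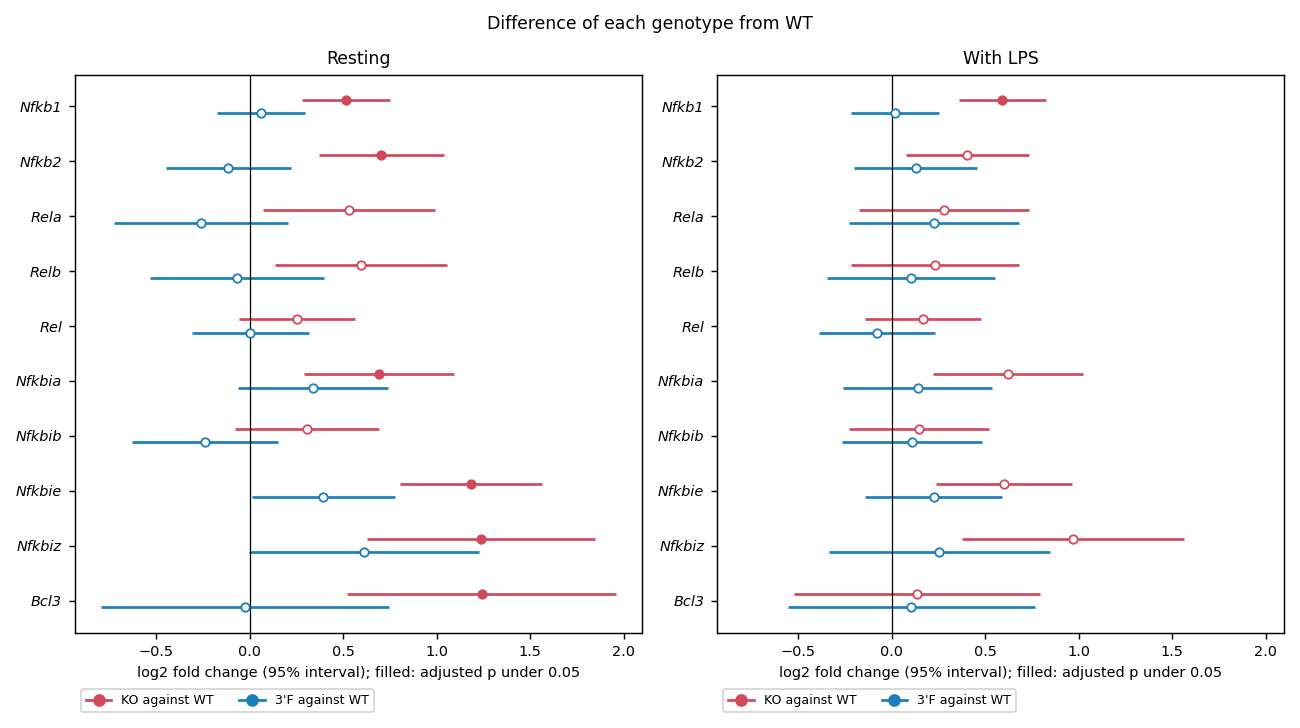
Log2 fold change of KO and of 3'F against WT on the horizontal axis, with 95% intervals, in resting cells (left) and with LPS (right). Filled points have an adjusted p under 0.05. Resting KO has 6 filled points from 0.52 to 1.24, KO with LPS has 1, and 3'F has none.

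Across the 10 genes the median KO to WT log2 fold change was 0.64 in resting cells and 0.34 with LPS, where the medians of all tested genes were 0.02 and 0.01. For 3'F against WT the medians were −0.01 and 0.12. All 10 were above 0 in KO against WT in both states. By library values alone, every KO library exceeded every WT library for 5 of the 10 genes in resting cells, against 13.7% of tested genes, and for 5 of 10 with LPS, against 16.9%. Against 3'F these counts were 6 (15.8%) and 5 (19.4%). For 3'F above WT they were 2 (3.28%) and 1 (3.98%). The comparisons share control libraries, so their counts are not independent of one another.

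For 3'F against WT the 95% interval was widest for Bcl3, from −0.80 to 0.74 at rest and from −0.56 to 0.76 with LPS. For Nfkb1 the intervals were narrower, −0.18 to 0.30 at rest and −0.22 to 0.25 with LPS. Resting 3'F differed from WT by 0.39 (0.01 to 0.78) for Nfkbie, with an unadjusted p of 0.0447 and an adjusted p of 0.843 in edgeR. For Nfkbiz the resting interval was −0.003 to 1.22. Of the 10 genes, 5 were above 0 and 5 below in resting 3'F against WT. A difference in the LPS response from WT was called for 0 of 10 genes in KO (0.00881% of all tested genes called) and for 0 of 10 in 3'F (0%). At an unadjusted p under 0.05 there were 2 in KO, Nfkbie and Bcl3 (4.93% of all genes), and 0 in 3'F (1.79%). DESeq2 called 0 of the 10 in both, where it called 26 of 9519 tested genes in KO and 0 of 19873 in 3'F.

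The KO calls in resting cells rested on few libraries. Without resting WT replicate 1 or 2 the count in KO against WT was 2, Nfkb1 and Nfkbie, and without KO replicate 1 it was 3, these and Nfkb2. In the main fit 1067 of 11357 tested genes were called. Without these WT libraries 584 of 11520 and 392 of 11507 were, and without that KO library 968 of 11516. Nfkbia (adjusted p = 0.0809 without it) and Bcl3 (adjusted p = 0.0873) also lost their calls without KO replicate 2. Fitted on the resting KO and WT libraries alone, the test called 1, Nfkbie, and 396 of 10851 tested genes. Without KO replicate 1 or 3'F replicate 3 the count against 3'F was 3, as Rela and Bcl3 missed the threshold. Over all tested genes these fits called 1097 of 11516 and 735 of 11433, against 1464 of 11357 in the main fit. Among the LPS calls, Nfkbib in WT was lost without resting replicate 1 or 3 (adjusted p = 0.0532 and 0.0558), Nfkbiz in WT without resting or LPS replicate 1 (adjusted p = 0.0724 and 0.0700), and Relb in KO without LPS replicate 2 (adjusted p = 0.0727).

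Resting KO replicate 3, with its high interferon genes, held the lowest level in its group for 9 of the 10 genes, where 40.8% of all tested genes were lowest in it. Its log2 ratio to the WT mean was 0.01 for Relb, 0.19 for Nfkbia and 0.19 for Nfkbiz, against 0.71 to 1.73 for these genes in replicates 1 and 2. It remained above WT for Nfkb1 (0.43), Nfkb2 (0.51) and Nfkbie (0.90). Leaving it out, 7 of the 10 genes were called in resting KO against WT, where 808 of 11493 tested genes were. For LPS in KO, Nfkbib then passed the test (0.61, adjusted p = 0.0175) while Nfkbiz stood at 0.39 and Bcl3 at 0.26. Without it the KO to WT log2 fold change was larger for 9 genes, from 0.38 for Rel to 1.56 for Nfkbiz, and smaller for Nfkbib (0.17), the gene that was highest in it. The macrophage marker sum was also higher in resting KO, 59489 to 61539 CPM, than in resting WT, 31118 to 47144 CPM. With LPS it was 69391 to 86456 against 44065 to 58283 CPM. Lyz2 alone held 26461 to 75160 CPM across the libraries, so the sum mostly follows that gene. Of the 7 markers, 2 were called higher in resting KO, Fcgr1 and Csf1r (5.12% of all genes), and Itgam lower (−0.71 ± 0.15, 4.27%). Without KO replicate 3 only Csf1r was called higher (0.87 ± 0.20), where 808 of 11493 tested genes were called in either direction. Fcgr1 then stood at 0.54 ± 0.28 (adjusted p = 0.286), and Itgam was again called lower (−0.61 ± 0.16). With LPS 0 were called higher in KO and Itgam lower (−0.59 ± 0.15, 2.9%). The part of these markers in the differences was not tested.

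Resting 3'F replicate 3 also stood apart from its group, as the chi-square of its counts over genes was 63.1 and 57.8 times its degrees of freedom against replicates 1 and 2, and 7.17 times between those. Its log2 ratio to the WT mean was −0.60 for Nfkb2, −1.02 for Rela, −0.62 for Relb, −0.81 for Nfkbib and −0.86 for Bcl3, where replicates 1 and 2 lay between −0.29 and 0.23, while Nfkb1, Nfkbia, Nfkbie and Nfkbiz were above 0 in it. Without it the LPS response in 3'F was 1.42 for Nfkb2, 0.75 for Rela, 1.21 for Relb, 0.78 for Nfkbib and 1.49 for Bcl3. The count called was again 8, where 3160 of 11433 tested genes were called. Resting KO exceeded 3'F by 0.65 for Nfkb2 (adjusted p = 0.0156), 0.57 for Rela (adjusted p = 0.0743) and 1.13 for Bcl3 (adjusted p = 0.0750) without that library, and resting 3'F differed from WT by −0.08 (Nfkbib) to 0.66 (Nfkbiz).

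**Figure D4:**
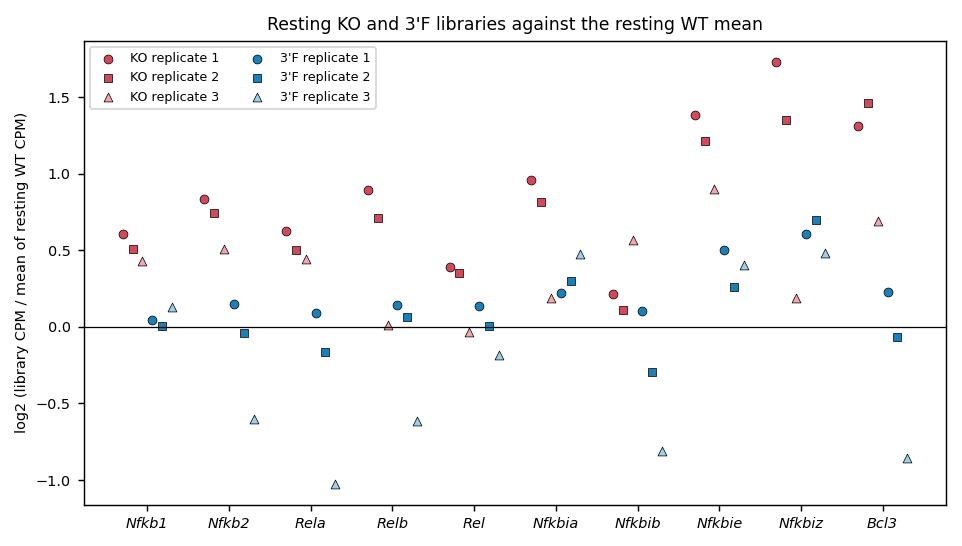
Log2 ratio of each resting KO and 3'F library to the mean CPM of resting WT, on the vertical axis, for the 10 genes. Circles, squares and triangles are replicates 1, 2 and 3. KO replicates 1 and 2 lie between 0.11 and 1.73, while KO replicate 3 lies near 0 for Relb and Rel, and 3'F replicate 3 falls to −1.02 for Rela.

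Levels of different genes were compared per length, as RPKM, which is CPM divided by the exon length in kilobases. In resting WT cells Nfkbia stood at 100.4 ± 19.2 RPKM (SD, n = 3), ahead of Nfkb1 at 27.8 ± 1.5, Nfkb2 at 16.2 ± 2.1, Rela at 15.1 ± 3.7 and Relb at 11.97 ± 1.20. Nfkbie was at 9.22 ± 1.58, Nfkbib at 7.56 ± 0.88, Rel at 5.72 ± 0.68, Nfkbiz at 4.86 ± 0.90 and Bcl3 at 2.29 ± 1.30. The ranges of the libraries overlapped between the neighbours Nfkb2 and Rela, Rela and Relb, Nfkbie and Nfkbib, and Rel and Nfkbiz, and between no other neighbours. With LPS the order in WT became Nfkbia (243 ± 18), Nfkb1 (46.5 ± 3.0), Nfkb2 (42.4 ± 2.0), Nfkbie (31.7 ± 3.8), Relb (28.6 ± 1.8), Rela (21.8 ± 3.0), Nfkbib (11.7 ± 0.2), Nfkbiz (9.56 ± 1.64), Bcl3 (6.55 ± 1.51) and Rel (6.01 ± 0.54), with overlap between Nfkb1 and Nfkb2, Nfkbie and Relb, Nfkbiz and Bcl3, and Bcl3 and Rel. Rel thus went from the eighth place to share the lowest with Bcl3.

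Nfkbia made up 77.3% to 82.0% of the summed level of the 5 IkB family genes in all 6 groups. Among the subunits Nfkb2 rose with LPS from 21.0% ± 1.2 to 29.2% ± 1.3 of the summed level in WT, from 23.4% ± 0.2 to 29.1% ± 0.7 in KO and from 20.0% ± 2.3 to 29.9% ± 1.0 in 3'F. Rel fell from 7.44% ± 0.16 to 4.15% ± 0.39 of it in WT while its own level was 5.72 ± 0.68 and 6.01 ± 0.54 RPKM. The summed IkB level was 124 ± 21 RPKM in resting WT, 155 ± 9 in resting 3'F and 209 ± 51 in resting KO. With LPS these sums were 303 ± 25, 336 ± 51 and 461 ± 75. The ratio of Nfkbia to Rela with LPS was 11.2 ± 0.8 in WT, 10.6 ± 1.8 in 3'F and 14.1 ± 0.3 in KO. At rest it was 7.03 ± 2.43 in WT, 11.8 ± 6.2 in 3'F and 7.42 ± 1.58 in KO. The resting 3'F value leans on replicate 3. There Rela held 7.41 RPKM against 16.0 and 13.5 in replicates 1 and 2, and Nfkbia 140 against 117 and 124.

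**Figure D5:**
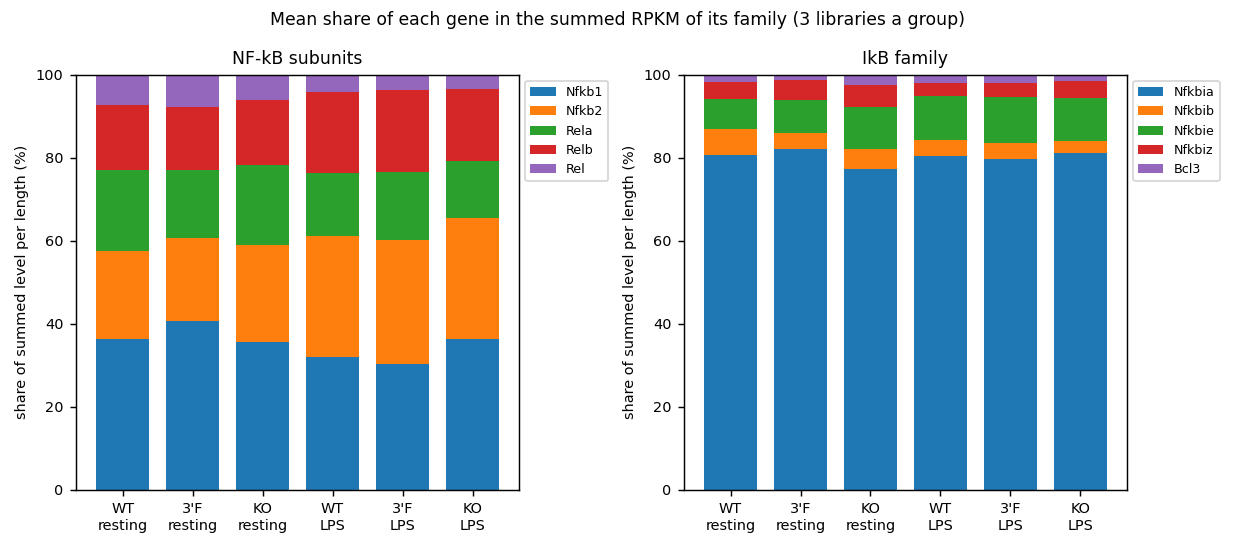
Mean share of each gene, in percent from 0 to 100, in the summed RPKM of the 5 subunits (left) and of the 5 IkB family genes (right), for 3 libraries in each of 6 groups. Nfkbia fills about the same part of every bar on the right, and on the left the Nfkb2 part is larger and the Rel part smaller in the LPS bars.

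Over the 18 libraries the levels of the 10 genes moved together to different degrees. Pearson r of log2 CPM between 2 members had a median of 0.83 over 45 pairs and ran from 0.29 (Rel and Nfkbib) to 0.98 (Nfkb2 and Relb). After removing group means the median was 0.57 and Nfkb2 and Relb stood at 0.89. These values describe libraries that share LPS treatment and scaling. By the same measure the genes outside the family most like each member were Vasp for Nfkb2 (0.99), Ifnar1 for Relb (0.99), Rab20 for Nfkbia (0.99), Kdm2a for Rela (0.98), Birc3 and Tnf for Nfkbie (0.98 each) and Gas7 for Nfkbib (0.97). Those for Nfkb1, Bcl3, Nfkbiz and Rel were Tmem176a (0.97), Camta2 (0.95), Ier3 (0.92) and Aebp2 (0.86).

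The other genes of the pathway were taken by list. Of 12 genes of the IKK complex and IkB destruction, 3 rose with LPS in WT, the IKK scaffold Ikbkg (0.43 ± 0.11), the ubiquitin ligase subunit Fbxw11 (0.42 ± 0.12) and Cul1 (0.39 ± 0.09), a share close to the 16.3% of all tested genes that rose there, and 0 were called between genotypes, with list medians from −0.06 to 0.06. Of 8 genes of the non-canonical pathway, 5 rose with LPS in WT (16.3% of all genes), led by the receptors Cd40 (2.86 ± 0.48) and Tnfrsf1b (1.72 ± 0.23), and 3 were higher in resting KO than in WT (5.12%), Birc3 (0.90 ± 0.12), Tnfrsf1b (0.84 ± 0.23) and Traf2 (0.48 ± 0.12). Without resting KO replicate 3 the count was again 3, but Tnfrsf1b missed the threshold (0.50 ± 0.19, adjusted p = 0.134). Birc3, a ubiquitin ligase, was also higher in KO with LPS (0.65 ± 0.12).

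Of 12 ubiquitin-related and feedback inhibitors, 8 rose with LPS in each genotype, where 16.3% of all tested genes rose in WT, 14.3% in KO and 17.2% in 3'F. N4bp1 (1.01 ± 0.17), Tank (0.51 ± 0.13) and Tnip1 (0.49 ± 0.11), restrainers of signalling to NF-kB, were higher in resting KO than in WT (5.12% of all genes), and the same 3 in KO with LPS (1.89%; 0.79 ± 0.16, 0.53 ± 0.12 and 0.76 ± 0.11). Without resting KO replicate 3 the resting count was 2, as Tank missed the threshold (0.40 ± 0.13, adjusted p = 0.0684). Of 10 other IkB-related regulators 1 was called in each state between KO and WT, near the 9.4% and 4.79% of all genes. Nlrc5 was higher in resting KO than in WT (1.74 ± 0.49, adjusted p = 0.0362; 0.50 ± 0.28, adjusted p = 0.324, without resting KO replicate 3) and Nlrc3 lower in KO with LPS (−1.25 ± 0.27, adjusted p = 0.0158). Nfkbid, a further nuclear IkB gene of that list, was lower with LPS in KO (−0.74 ± 0.25, adjusted p = 0.0352). Its LPS change was −0.09 ± 0.25 in WT (adjusted p = 0.841) and −0.42 ± 0.25 in 3'F (adjusted p = 0.208), and the difference of KO from WT, −0.65 ± 0.35, did not pass the test (adjusted p = 1.00).

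Of 25 known NF-kB target genes 16 rose and 1, the survival gene Bcl2l1, fell with LPS in WT, where 16.3% and 12.3% of all tested genes did. In resting cells 9 of 25 were higher in KO than in WT (5.12% of all genes), with a list median of 1.15, and the chemokines Cxcl10 (4.73 ± 0.98) and Ccl5 (3.45 ± 1.02) led them. Without resting KO replicate 3 the count was 8 higher and 1 lower with a median of 0.94, Cxcl10 stood at 2.67 ± 0.71 and Ccl5 at 0.35 ± 0.59 (adjusted p = 0.795). In the LPS cultures 2 of 25 were higher in KO (1.89%), Il1a (1.71 ± 0.34) and Icam1 (0.58 ± 0.15). In 3'F against WT 0 genes of these lists were called in either state. Irak1 and Traf6, the named miR-146a targets, were called in none of the comparisons. Irak1 differed by 0.22 ± 0.18 and Traf6 by 0.26 ± 0.16 between KO and WT at rest.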

How the data were processed

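RNA of 18 BMDM libraries was measured by sequencing after depletion of ribosomal RNA, with strand-specific libraries. The deposited values are raw counts per protein-coding gene. Per the submitters' processing notes and methods, the authors trimmed reads with cutadapt 1.8.3, aligned them to mm10 with HISAT2 2.1.0 and counted them per Gencode gene with featureCounts 1.5.3 in reverse-stranded mode, so antisense reads were kept apart. The deposited exon length of each gene (another column) was used for RPKM.

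Here genes were kept by filterByExpr and all 18 libraries entered a quasi-likelihood fit of edgeR 4.0.16 (R 4.3.3) with TMM scaling and a coefficient for each of 6 groups. P values are two-sided and adjusted by Benjamini-Hochberg over 11357 genes, with calls at 0.05. The SE is the log2 fold change over the square root of F. Alternatives were DESeq2 1.42.0, its size factors, no filter, the compared groups alone, a replicate block, limma 3.58.1 (voom with quality weights) and each library left out. No library was a copy of another of its group (chi-square over genes at least 6.95 times its degrees of freedom). Counts are of reads, not of tagged molecules.

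The members, the pathway lists and the rule for naming genes (all members, up to 3 called genes higher and 3 lower in a list and comparison, and the 3 genes most correlated with a member, of which the first is given here) were chosen with earlier results of these data known. Nfkbid, Irak1 and Traf6 come from those lists; a second gene most like Nfkbie was named too. Motif searches and seed matches were made in RefSeq and GENCODE M21 sequences. Proteins were not analysed here.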

Additional observations from a re-analysis of the deposited data

How the results depend on the processing

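Of the values of single members under the alternatives, 1429 kept their side of the threshold, 42 moved past it, 39 fell short of it, and 0 turned a call around. Calls over all tested genes are in brackets. The count called in resting KO against WT was 6 (1067 of 11357), and 1 when the compared groups were fitted alone (396 of 10851). The count in KO against WT with LPS was 1 (544 of 11357). It was 4 with DESeq2 (912 of 11817), 2 with no low-count filter (552 of 19883), 4 with the compared groups alone (1031 of 10903) and 5 with quality weights (1777 of 11357). In resting KO against 3'F it was 5 (1464 of 11357), and 0 with the compared groups alone (16 of 10944) or 9 with quality weights (2916 of 11357). In KO against 3'F with LPS it was 1 (441 of 11357), and 3 (1661 of 10916) and 2 (1842 of 11357) under those 2 settings. The cause was not tested. Leaving out 1 library gave 6 to 8 called for LPS in WT, 4 to 6 in KO and 8 to 8 in 3'F, 2 to 7 for resting KO against WT, 1 to 1 with LPS, 3 to 7 for resting KO against 3'F, 0 to 1 with LPS, and 0 to 0 for 3'F against WT in both states and for both interactions. Over all tested genes (11433 to 11522) the calls ran from 2213 to 2932 for LPS in WT, 2154 to 4040 in KO and 2490 to 3594 in 3'F. They ran from 392 to 1047 for resting KO against WT and 180 to 416 with LPS. Against 3'F they ran from 735 to 1811 and 142 to 311. Calls of Nfkb1 in KO with LPS against WT held in all 12 alternatives, while 3 others that missed the threshold, Nfkbia, Nfkbie and Nfkbiz, were called by DESeq2.

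Replicate numbers are shared by the groups, and resting and LPS columns of a genotype with the same number also share a letter, which no label ties to a mouse. Same-numbered resting and LPS libraries of a genotype deviated from their group means with correlations from 0.0283 to 0.318, and across genotypes from −0.287 to 0.214. All 9 within a genotype were above 0 and 5 were over 0.1. With 3 mice of each genotype some libraries must share a mouse, but these values do not settle which. The replicate block was the pair of cultures within a genotype for LPS responses and the number across genotypes otherwise. With it no count of members moved by over 1.5 times. In the block fit Bcl3 lost its call in resting KO against WT (1.22, adjusted p = 0.0503), and Relb gained one in resting KO against 3'F (0.67, adjusted p = 0.0396). For LPS in KO, Nfkbib (0.48, adjusted p = 0.0494) and Nfkbiz (0.82, adjusted p = 0.0369) gained one. Resting KO replicate 3 and resting 3'F replicate 3 were also left out together, chosen after seeing the data. No count of members then moved by over 1.5 times. It was 6 for LPS in KO, 8 for resting KO against WT and 7 for resting KO against 3'F. Calls over all tested genes moved further, to 5044, 1669 and 749 of 11411, against 3059, 1067 and 1464 of 11357 in the main fit. A KO to WT difference in the LPS response was then called for 33 genes, against 1, and for 0 members. Bcl3 is limited by depth, with as few as 10 counts in a library.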
